A study of Mus musculus with 8 samples.

Results

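Cytosine methylation is written by the DNA methyltransferases, of which Dnmt1 copies the mark after replication and Dnmt3a and Dnmt3b set it anew. The TET dioxygenases Tet1, Tet2 and Tet3 oxidise the methyl group, and the thymine DNA glycosylase Tdg cuts out the most oxidised forms so that base excision repair can put back an unmodified cytosine. Mbd4 is another thymine glycosylase, which acts at methylated CpG sites. In the brain, neurons carry high levels of both methylated and hydroxymethylated cytosine, and several of these genes are known targets of the miR-29 family.

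The 8 genes Tdg, Mbd4, Tet1, Tet2, Tet3, Dnmt1, Dnmt3a and Dnmt3b were taken by name from a count table of 55416 genes, and all 8 were found. Messenger RNA was sequenced from the cerebral cortex of mice, in 4 libraries heterozygous for the L192P substitution in Ago2 (L192P, genotype AGO2_L192P/+) and 4 wild-type libraries (WT). The labels do not say which animal each library came from. The substitution was made by CRISPR/Cas editing of mouse embryos, founders were crossed to C57/Bl6 mice, and heterozygotes came from crosses with wild-type animals. Argonaute 2, the product of Ago2, carries miRNA guides to target mRNAs, and the comparison asked which cortical transcripts differ between the genotypes. The age and sex of the animals and the number of founder lines are not given in the sources used here, and heterozygotes were born less often than Mendelian segregation predicts.

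Library totals ranged from 20396357 to 43575900 counts. Replicate 1 of either genotype had at most 1.82 normalized counts of Xist, whereas the other 6 libraries had between 5185 and 7257, so each genotype held 1 library of the Xist-low pattern. Raw counts of chromosome Y genes were 3547 and 3534 in replicate 1 of L192P and WT, and 186 to 573 in the other 6 libraries. Normalized counts here are reads per gene divided by a DESeq2 size factor for each library. In bulk tissue, fewer cells of a type and less RNA per cell cannot be told apart. In 12 lists of marker genes for cell types and neighbouring brain regions, all 68 genes were tested. By DESeq2 at an adjusted p under 0.05, 2 were higher and 1 was lower in L192P. Among all tested genes 0.789% were higher and 0.569% lower. Of the 68, 0 were at 0 in all libraries, and the excitatory neuron markers were present throughout, at 80600 to 101549 summed normalized counts in WT.

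Sequences of the miRNAs and of their matches in the members are shown because Argonaute 2 finds its targets through pairing with the miRNA seed. The mature mouse sequences are from RefSeq (GRCm38.p6), with bases 2 to 8, the seed, in capitals. Both miR-29-3p and miR-92-3p are included because both names are attached to Tdg in the study.
miR-29a-3p: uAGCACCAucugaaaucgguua
miR-29b-3p: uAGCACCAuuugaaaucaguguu
miR-29c-3p: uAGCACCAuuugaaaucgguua
miR-92a-3p: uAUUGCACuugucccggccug
miR-92b-3p: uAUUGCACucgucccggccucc
The 3 miR-29 sequences share the seed AGCACCA, and the pair of miR-92 sequences share AUUGCAC. The letters searched were therefore TGGTGCT for miR-29-3p and GTGCAAT for miR-92-3p, on the transcript strand of annotated 3′ UTRs.

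The 3′ UTR of the canonical Tdg transcript was 5100 bases long and held 3 miR-29-3p matches and 0 miR-92-3p matches. They are shown with 22 bases upstream and 1 base downstream, on GRCm39, plus strand, with the match in capitals.
Tdg chr10:82485317-82485346: tgtttgataatcctgtttaaacTGGTGCTg
Tdg chr10:82485489-82485518: gtggctgctcatgcattttccaTGGTGCTa
Tdg chr10:82485996-82486025: catgaggaccctctgtacttccTGGTGCTt
Of these, the match in the middle also had an A opposite the first base of the miRNA.

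Matches to miR-29-3p were also present in the canonical 3′ UTRs of Tet1 (7), Tet2 (5), Dnmt3a (5) and Dnmt3b (1). Examples that also had an A opposite the first miRNA base, and the single match of Dnmt3b, are printed in the orientation of the transcript.
Tet1 chr10:62641821-62641850, minus strand: aatgaaggtttcttgaaggagaTGGTGCTa
Tet2 chr3:133171934-133171963, minus strand: ctgtttgggtgttaacattaaaTGGTGCTa
Tet2 chr3:133170877-133170906, minus strand: tgaagaaaaattcacatcacgaTGGTGCTa
Dnmt3a chr12:3961383-3961412, plus strand: gcccttgcccaggggaggtagcTGGTGCTa
Dnmt3a chr12:3961452-3961481, plus strand: acataccagcggggtcccaagcTGGTGCTa
Dnmt3b chr2:153528525-153528554, plus strand: ggctgcttagagtagcccggcaTGGTGCTc
The letters of miR-92-3p were found once each in Dnmt3a and Tet2.
Dnmt3a chr12:3958787-3958816, plus strand: tgtggaatttatccagactcgcGTGCAATa
Tet2 chr3:133170282-133170311, minus strand: tcctagaagctggtggtgtgctGTGCAATa

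Among 14897 tested genes with a canonical 3′ UTR, 16.7% held the miR-29-3p letters and 8.06% held those of miR-92-3p. Of the 8 members, 5 and 2 did, with Tet3, which has no canonical 3′ UTR, counted among the 8. The members were chosen as a known miR-29 target family, so their share of miR-29-3p matches is not a finding of these data. The median length of those UTRs was 1362 bases, and the 5 members with a miR-29-3p match had UTRs of 1331 (Dnmt3b), 3062 (Tet2), 5100 (Tdg), 6696 (Dnmt3a) and 7962 (Tet1) bases. Dnmt1 and Mbd4 held no match in 872 and 1800 bases. The canonical Tet3 transcript had no annotated 3′ UTR, and the longest one of another Tet3 transcript, 5669 bases, held 8 miR-29-3p matches. A match of letters is a description and does not show that a site is used.

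Tdg was the member that passed DESeq2 between the genotypes at an adjusted p under 0.05. WT replicates 1 to 4 had 1015, 1051, 995 and 1036 normalized counts of Tdg, and L192P replicates 1 to 4 had 894, 806, 774 and 815. All 4 L192P libraries lay below all 4 WT libraries, and the WT values spanned a narrower range. The mean decreased by 19.7%, from 1024 ± 24.3 in WT to 822 ± 51.2 in L192P (SD, n = 4). On the log2 scale Tdg fell by 0.32 with a standard error of 0.07 (95% interval -0.46 to -0.17, or 0.727 to 0.886 of the WT level), with a DESeq2 adjusted p of 0.00323 over all genes. The exact two-sided permutation test gave p = 0.0286, the smallest that 4 against 4 libraries can give when the labels are shuffled freely. With labels swapped only within same-numbered pairs, the exact two-sided permutation p was 0.125, the smallest that 4 pairs can give, so that design cannot reach 0.05. The gene (ENSMUSG00000034674) lies on GRCm39 chromosome 10, from 82465610 to 82489654, plus strand. The study named Tdg on these same libraries, so its call is not independent evidence.

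Of the 8 members, 1 was called, where 253 of 18627 tested genes (1.36%) were called in either direction. It was lower in L192P, as were 106 genes (0.569%), and 0 members were called higher, where 147 genes (0.789%) were. With total-count scaling the split was 168 higher and 64 lower. Groups did not overlap for 1 of the 8 members, Tdg, against 5.97% of all tested genes in either direction and 2.96% with L192P lower. Tdg ranked 79th among all genes by its unadjusted p. The median log2 fold change of the members was 0.01 and that of all tested genes was 0.0019.

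**Figure D1:**
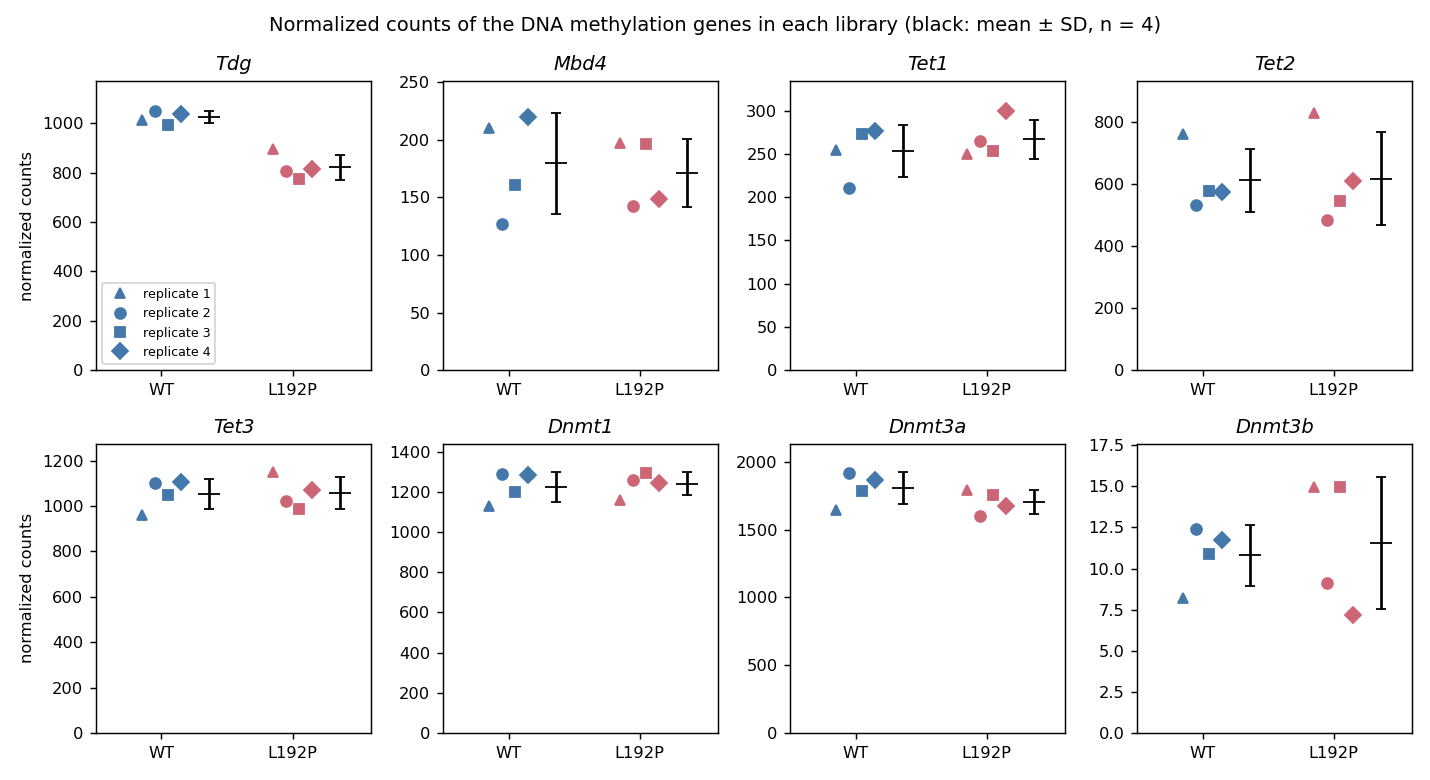
Normalized counts (y axes, from 0) of the 8 genes in each library, with WT in blue, L192P in red, replicate numbers as marker shapes, and the mean ± SD of 4 libraries in black. The L192P libraries sit between 774 and 894 for Tdg, below the WT libraries at 995 to 1051, and the genotypes overlap for the other 7 genes.

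The difference in Tdg was seen in each pair of libraries with the same replicate number. L192P was lower by a log2 ratio of -0.18 in replicate 1, -0.38 in replicate 2, -0.36 in replicate 3 and -0.35 in replicate 4. With the replicate number as a block, Tdg fell by 0.32 with a DESeq2 adjusted p of 0.00446. Without replicate 1 of both genotypes, the Xist-low libraries, it fell by 0.37 with an adjusted p of 0.00198. The Xist-low pattern has 1 library of each genotype, too few for a test.

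Across the 22 alternative fits Tdg fell by 0.29 to 0.37 on the log2 scale, with an adjusted p of 0.00144 to 0.219. Of the 22, 4 kept the same unadjusted p by construction (recovered counts and changes of filter), and 12 of the other 18 gave an adjusted p under 0.05. With edgeR's quasi-likelihood test the adjusted p was 0.0595 and with limma-voom 0.0686. DESeq2 without L192P replicate 3 gave 0.0585 and without WT replicate 2 gave 0.0503. The plot of Tdg under each model shows that these fits moved the p more than the fold change.

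**Figure D2:**
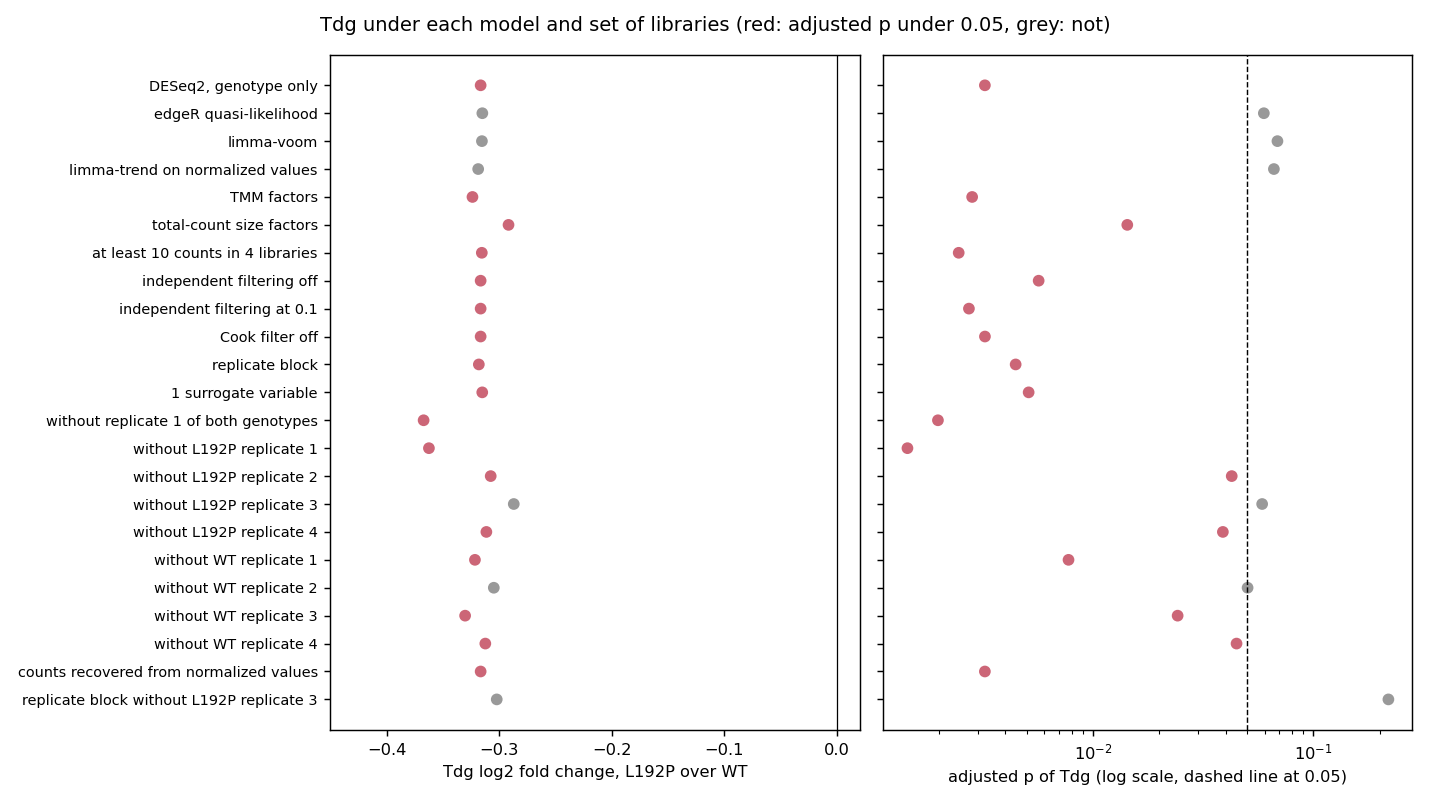
Left, log2 fold change of Tdg (L192P over WT) under DESeq2 with genotype only and under 22 alternatives; right, its adjusted p on a log axis with a dashed line at 0.05, with red points under the line's value. The fold changes stay between -0.37 and -0.29 while the adjusted p runs from 0.00144 to 0.219.

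The Tdg locus shares exon sequence with Glt8d2, a glycosyltransferase gene on the opposite strand. Of the merged Tdg exons, 57.1% overlap exons of Glt8d2, as does 76.9% of the 3′ UTR, including all 3 miR-29-3p matches. Stranded library kits keep the strand. Whether the counting used it is not given in the sources used here, and without it reads from the shared exons cannot be assigned to either gene. Glt8d2 itself had 315, 304, 253 and 241 normalized counts in L192P replicates 1 to 4 and 315, 341, 319 and 316 in WT replicates 1 to 4. As for Tdg, all 4 L192P libraries lay below all 4 WT libraries, and L192P was lower in each same-numbered pair. The margin in replicate 1 was small (314.8 in L192P and 315.1 in WT), and L192P replicates 3 and 4 were the lowest libraries. Among all tested genes, 2.96% had groups without overlap and L192P lower. The part of Glt8d2 reads in the Tdg difference was not tested. The change of Glt8d2 was -0.21 ± 0.12 on the log2 scale (SE, DESeq2 adjusted p 0.574). The processed pseudogenes Tdg-ps and Tdg-ps2 had between 0 and 8 counts in any library, against 671 to 1860 counts of Tdg.

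Levels of some of the 12 marker lists, picked after their values were seen, are given beside Tdg. The 6 excitatory neuron markers had a median log2 fold change of -0.19 and 0 of 6 were called. Their summed levels overlapped, at 80721 to 86531 normalized counts in L192P and 80600 to 101549 in WT. The score of this list, the mean of centred log2 values, was -0.13 to -0.05 in L192P and -0.03 to 0.15 in WT, without overlap. The 6 striatum markers summed to 20921 to 26211 in L192P and 26728 to 32198 in WT, without overlap, and 1 of 6 was called (lower). In L192P replicate 3, the library with the least Tdg, the striatum score was lowest (-0.33) and the thalamus score highest (1.11) of all 8 libraries. The 6 thalamus markers summed to 3574 to 6470 in L192P and 3201 to 3602 in WT, with overlap. The thalamus score was also high (0.61) in L192P replicate 1, the L192P library with the most Tdg, and was -0.23 in L192P replicate 4. The hippocampus score was high in replicate 3 of both genotypes, at 0.75 in L192P and 0.84 in WT. The part of these markers in the Tdg difference was not tested. Of the other lists, 1 of 6 inhibitory neuron markers (Gad2) and 1 of 6 thalamus markers (Calb2) were called, both higher, and the remaining 9 lists had 0 calls. The inhibitory list had a median log2 fold change of 0.03. Its uncalled genes were Pvalb at -0.22, Sst at -0.04, Vip at 0.0054, Gad1 at 0.06 and Slc32a1 at 0.14.

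Mbd4, the other glycosylase, did not differ detectably. WT replicates 1 to 4 had 210, 127, 161 and 220 normalized counts, and L192P replicates 1 to 4 had 197, 142, 196 and 149. Both genotypes held high and low libraries, and the L192P range lay inside that of WT. The log2 fold change was -0.06 ± 0.19 (SE, DESeq2 adjusted p 0.984), and the 95% interval ran from 0.741 to 1.24 of the WT level. Mbd4 (ENSMUSG00000030322) lies on chromosome 6, 115817646 to 115830361, minus strand.

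None of the 3 TET genes passed the test. Tet3, the most abundant of them per length, had 962, 1100, 1048 and 1105 normalized counts in WT replicates 1 to 4. Its L192P values were 1149, 1021, 987 and 1070. The highest and the lowest Tet3 values both came from replicate 1, of L192P and of WT. The log2 fold change of Tet3 was 0.0048 ± 0.08 (SE, DESeq2 adjusted p 0.998), and its sign turned in 5 of 22 alternatives, among them TMM scaling.

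Tet2 had 760, 532, 579 and 576 normalized counts in WT replicates 1 to 4 and 830, 486, 547 and 610 in L192P. Replicate 1 was the highest library in either genotype, by a wide margin. Both replicate 1 libraries of Tet2 were above the other 6 libraries, which ranged from 486 to 610, and the mean of the pair was 1.43 times the mean of the rest. Dnmt1 showed the opposite arrangement, with 1129 and 1160 normalized counts in replicate 1 and 1200 to 1296 in the other 6 libraries. Among all tested genes, 18.8% had both replicate 1 libraries outside the range of the other 6. The log2 fold change of Tet2 between the genotypes was 0.02 ± 0.15 (SE, DESeq2 adjusted p 0.996), and its sign turned in 6 of 22 alternatives.

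Tet1, the least abundant TET gene per length, had 254, 211, 273 and 276 normalized counts in WT replicates 1 to 4. L192P replicates 1 to 4 had 249, 265, 254 and 299 normalized counts of Tet1. WT replicate 2 was lowest and L192P replicate 4 highest, with the rest close together. The log2 fold change was 0.08 ± 0.13 (SE, DESeq2 adjusted p 0.942). Without WT replicate 2 it was -0.0059. Tet1, Tet2 and Tet3 lie on chromosomes 10 (62640349 to 62744775), 3 (133169436 to 133250900) and 6 (83339355 to 83436066), all on the minus strand, and 9.06% of the merged Tet3 exons overlap Bola3 on the opposite strand. Bola3 had 476 ± 34.5 normalized counts in L192P and 471 ± 35.4 in WT (SD, n = 4).

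The DNA methyltransferases also did not pass the test. Dnmt3a, the main de novo enzyme of neurons, had 1647, 1918, 1788 and 1870 normalized counts in WT replicates 1 to 4. L192P replicates 1 to 4 had 1792, 1599, 1757 and 1675 normalized counts of Dnmt3a. L192P was lower in 3 of the 4 same-numbered pairs and higher in replicate 1, and the groups overlapped. The log2 fold change of -0.08 (standard error 0.07, DESeq2 adjusted p 0.835) was below 0 in all 22 alternatives, and none of them passed. The lowest value, -0.15, came without replicate 1 of both genotypes (DESeq2 adjusted p 0.322, unadjusted p 0.0385).

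Dnmt1 had 1129, 1287, 1200 and 1282 normalized counts in WT replicates 1 to 4 and 1160, 1260, 1296 and 1243 in L192P. The ranges nearly coincide. The difference for Dnmt1 was 0.02 ± 0.07 on the log2 scale (SE, DESeq2 adjusted p 0.989), which did not pass. Dnmt1 is also known from dividing cells, and the 6 markers of dividing cells summed to only 440 to 543 normalized counts in L192P and 476 to 572 in WT. Dnmt3b was near the limit of the data, with 6 to 22 counts per library and means of 11.6 ± 4.02 normalized counts in L192P and 10.8 ± 1.85 in WT (SD, n = 4). The difference for Dnmt3b was 0.10 ± 0.48 on the log2 scale (SE), so a change of up to 2.07 times lies inside its 95% interval. Dnmt1, Dnmt3a and Dnmt3b lie on chromosomes 9 (20817945 to 20871184, minus strand), 12 (3856007 to 3964443, plus strand) and 2 (153490861 to 153529650, plus strand).

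The intervals show which falls could have been missed. The lower ends of the 95% intervals were at log2 values of -0.13 for Dnmt1, -0.22 for Dnmt3a, -0.15 for Tet3, -0.16 for Tet1 and -0.29 for Tet2, all above the value of -0.32 measured for Tdg. For Tet2 this did not hold without L192P replicate 1 (-0.41) or WT replicate 2 (-0.37), 3 (-0.34) or 4 (-0.35), so a fall of that size in Tet2 could be missed. The lower end for Tet1 moved to -0.26 without WT replicate 2 and -0.25 without L192P replicate 4. That for Dnmt3a moved to -0.29 without replicate 1 of both genotypes. For Mbd4 and Dnmt3b the lower ends were at -0.43 and -0.84, so a fall of the size seen in Tdg could be missed there. The value of Tdg has its own 95% interval of -0.46 to -0.17, which the lower ends for Dnmt3a and Tet2 also reach. Whether Tdg differed from the other members in its genotype effect was not tested.

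**Figure D3:**
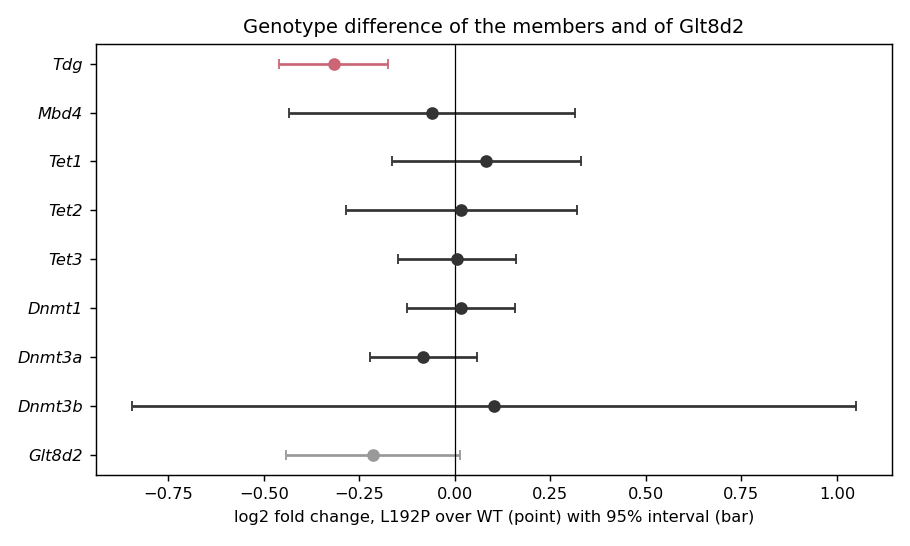
Log2 fold change of L192P over WT (x axis, points) with its 95% interval (bars) for the 8 members and, in grey, Glt8d2, which shares exons with Tdg. The interval of Tdg, in red, runs from -0.46 to -0.17, and those of the other members include 0.

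Levels between genes were set side by side per kilobase of merged exon. On this length Dnmt1 was the most abundant, at 144 ± 8.84 normalized counts per kb in WT and 146 ± 6.75 in L192P (SD, n = 4). Dnmt3a and Tdg followed, and their ranges over the 8 libraries overlapped. In WT, Tdg had 109 ± 2.58 and Dnmt3a 106 ± 6.95 normalized counts per kb, whereas in L192P Tdg had 87.1 ± 5.42 and Dnmt3a 100.2 ± 5.08.

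Next came Tet3, Tet2, Mbd4 and Tet1, at means over all libraries of 63.2, 34.7, 25.5 and 16.8 normalized counts per kb. The range of Mbd4 overlapped those of both its neighbours in this order, although Tet2 was above Mbd4 and Mbd4 above Tet1 in all 8 libraries. Dnmt3b was lowest, at 1.80. The order depends on the length used, because the merged exons of Tdg (9435 bases) and Dnmt3a (17028 bases) are far longer than their mean transcripts (2743 and 3759 bases). With the mean transcript length Dnmt3a and Tdg came before Dnmt1, and Tet1 before Mbd4. Of the 9435 bases of Tdg, 5389 are shared with Glt8d2. If reads of the shared bases were not counted, the remaining 4046 bases would give Tdg 228 normalized counts per kb, above Dnmt1, so the place of Tdg in this order is uncertain.

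**Figure D4:**
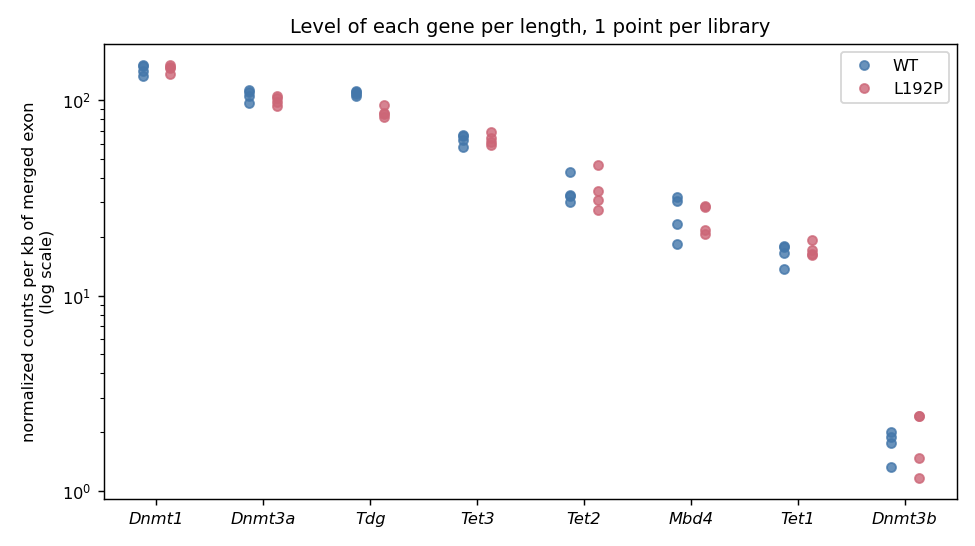
Normalized counts per kilobase of merged exon (y axis, log scale) for each gene, with 1 point per library, WT in blue and L192P in red, ordered by the mean over 8 libraries. Dnmt1 is highest at 133 to 152 and Dnmt3b lowest at 1.16 to 2.42.

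Relative to the summed per-kb level of the 3 TET genes in the same library, Tdg stood at 0.921, 1.02, 0.933 and 0.942 in WT replicates 1 to 4. In L192P replicates 1 to 4 the ratio was 0.719, 0.808, 0.771 and 0.733. The ratios of the genotypes do not overlap, which follows from the values of Tdg given above and is not a separate result, and their size depends on the same length of Tdg. The ratio of Dnmt3a to Dnmt1 per kb was 0.728 to 0.744 in WT and 0.634 to 0.771 in L192P, so the L192P libraries were more spread and enclosed the WT range.

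The wider set of genes around DNA methylation held 84 genes in 8 groups, of which 79 were tested. By DESeq2 0 of them passed at an adjusted p under 0.05, and 1 of 79 had an unadjusted p under 0.05, where 9.44% of all tested genes did. None passed with edgeR, limma or any other alternative. The median log2 fold change was -0.0063, with 43 genes below 0 and 36 above. Genotypes did not overlap for 4 of the 79 genes (5.06%), Dmap1, Zbtb38, Idh1 and D2hgdh, all with L192P above WT. Counted in either direction, this share is near the 5.97% of all tested genes, where 2.96% had L192P lower. Dmap1 and Zbtb38 were named after their values were seen.

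**Figure D5:**
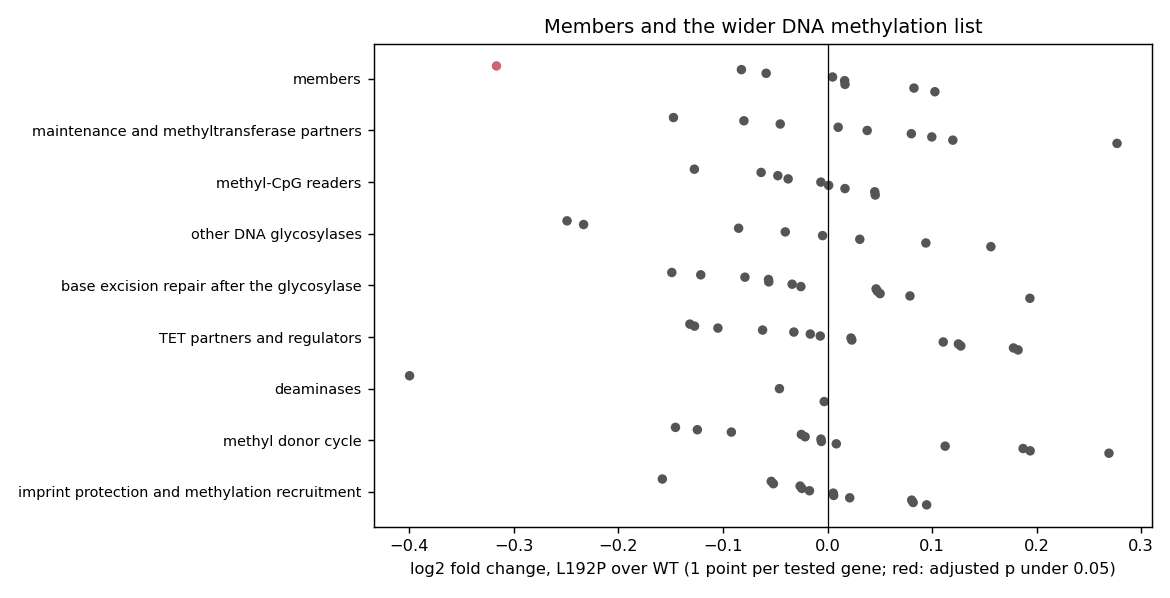
Log2 fold change of L192P over WT (x axis) for each tested gene of the members and of 8 groups of the wider list (rows), with 1 point per gene. Tdg, at -0.32, is the 1 red point (adjusted p under 0.05), and the 79 wider-list genes lie between -0.40 and 0.28.

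Within the glycosylases beyond the members, Smug1, a uracil glycosylase, was the most abundant and differed by -0.0048 ± 0.10 on the log2 scale (SE). Neil1, an oxidised-base glycosylase that can act after Tdg, had the smallest unadjusted p of that group. Its level was 123 ± 15.9 normalized counts in L192P and 144 ± 4.34 in WT (SD, n = 4), or -0.23 ± 0.15 on the log2 scale (SE, DESeq2 adjusted p 0.693). Of the 12 repair genes that act after the glycosylase, 7 were below 0 and 5 above. Parp1, the strand-break sensor, led them in abundance and differed by -0.08 ± 0.06 (SE, log2), and Lig3, a DNA ligase, had the smallest p with -0.15 ± 0.11 (SE, log2, DESeq2 adjusted p 0.768).

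Idh1 had the smallest p of the whole wider list. It encodes a cytosolic isocitrate dehydrogenase, which makes the 2-oxoglutarate that TET enzymes use. Idh1 had 1174 ± 67.4 normalized counts in L192P and 1037 ± 45.5 in WT (SD, n = 4), and the groups did not overlap, but the log2 fold change of 0.18 (standard error 0.07) had a DESeq2 adjusted p of 0.298. The most abundant gene of this group, Idh3a, a mitochondrial isocitrate dehydrogenase subunit, differed by -0.03 ± 0.07 on the log2 scale (SE). D2hgdh, which removes 2-hydroxyglutarate, an inhibitor of TET enzymes, was the other gene of this group whose genotypes did not overlap, at a log2 difference of 0.18 (DESeq2 adjusted p 0.664). It was singled out after its values were seen.

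Of the 9 readers of the mark, 0 passed the test. Mbd1 had the smallest p of the 9 readers, at -0.13 on the log2 scale (DESeq2 adjusted p 0.676). Among the partners of the methyltransferases, the deubiquitinase Usp7 was the most abundant, with a log2 fold change of 0.04. Dnmt3l, a cofactor of de novo methylation, had the smallest p of its group but a mean of only 2.16 normalized counts and no adjusted p.

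In the methyl donor cycle, Mtr, the methionine synthase, had the smallest p of its group, at 0.19 ± 0.10 on the log2 scale (SE, DESeq2 adjusted p 0.540). Of the genes listed under this heading Ahcyl1 was the most abundant, at -0.02, and its listing does not show that it acts in the cycle. Trim28, a corepressor that protects imprinted methylation, differed by 0.08 ± 0.06 and the histone methyltransferase Ehmt2 by -0.05 ± 0.06 (SE, log2). The cytidine deaminases were sparse. Apobec2 and Apobec3 had means of 9.81 and 54.5 normalized counts and log2 fold changes of -0.40 (standard error 0.58) and -0.05 (standard error 0.22).

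Finally, the genes whose profile was most like that of Tdg were ranked by Pearson r of log2 normalized counts over the 8 libraries, among 13415 genes with a mean of at least 50. The 5 leading genes were Vdac2 (r = 0.995), a mitochondrial outer membrane channel, Ubl3 (0.982), a ubiquitin-like protein, Tor1b (0.978), a torsin ATPase, Trbc2 (0.976), a T cell receptor constant region, and Klhl2 (0.971), a Kelch protein. All of these points share the genotype split and the library, and with 8 libraries many genes can rank high. Within genotypes, after each group's mean was removed, r was 0.956 for Vdac2 and between 0.719 and 0.845 for the other 4. The sizes differed. Vdac2 had 5212 ± 60.9 normalized counts in L192P and 5430 ± 15.6 in WT (SD, n = 4), a log2 fold change of -0.06. It did not pass (DESeq2 adjusted p 0.772), nor did Ubl3 at -0.15 (0.0572) and Tor1b at -0.18 (0.274). Trbc2 at -0.57 (0.00112) and Klhl2 at -0.24 (0.000379) passed. These genes were picked by likeness to Tdg over the same libraries, and Tdg splits the genotypes. Neither their differences nor their r within genotypes are therefore separate results.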

How the data were processed

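The authors aligned reads of stranded mRNA libraries with STAR to mouse GRCm39, counted them per gene with featureCounts 1.5.1 and deposited raw counts of 8 cortex libraries. The submitters' processing notes give STAR 2.7.9a and DESeq2 1.40.2, and the study's methods name other versions of both. The labels name the kit as TruSeq Stranded mRNA, and the methods as Illumina Stranded mRNA Prep. The authors' second deposited table holds a normalized signal, which is each count divided by a size factor. Multiplied by the size factors computed here it gave the counts back, with a largest difference of 2.9e-10 and 100% of values above 0 within 0.001 of a whole number, and DESeq2 on these recovered counts called 253 genes. The strand setting and the annotation release are not given in the sources used here. The 194 genes with an identifier but no symbol held 0.00904% of the counts and stayed in the fit.

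The members and gene lists were chosen with earlier results of these data known. DESeq2 1.42.0 (R 4.3.3) was fitted to the counts of all genes with genotype as the term, median-of-ratios size factors, independent filtering at 0.05 and no shrinkage. Calls were made at an adjusted p (Benjamini-Hochberg) under 0.05. Alternatives used edgeR 4.0.16, limma 3.58.1, sva 3.50.0, other scalings and filters, and left-out libraries. Named were the 8 members, wider-list genes called or leading their group by p or mean count, genes sharing exons with members (those on long noncoding RNAs had means under 3 normalized counts), and the 5 genes most like Tdg. Some genes these rules name are not reported here. Positions, merged exons and 3′ UTRs are from GENCODE M39 (GRCm39), which held 98.8% of the gene identifiers, and the printed sites matched the genome. On simulated counts of 55416 genes with 200 changed by 1 log2 unit, DESeq2 recovered 88% and 11.6% of its calls were false. For DESeq2 with the replicate block these were 81% and 8.99%, for edgeR 84.5% and 5.59%, and for limma-voom 82.5% and 5.71%.

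The labels number the replicates without saying which animal each came from, so p-values measure the spread between these libraries, part of which may be technical. Replicate 1 of each genotype differed from the rest in Xist and chromosome Y counts, so it came from another animal. Whether the remaining libraries came from separate animals is not given. The chi-square per degree of freedom between libraries of 1 genotype was 5.52 to 22.6, so none were duplicates. Deviations from the group mean correlated between same-numbered libraries at 0.63, 0.38, 0.23 and 0.33, and between other numbers at -0.38 to 0.14, so the numbers met the rule for pairing. The reported fit, after the study's methods in tool and threshold, has no block, and the replicate block is an alternative. With independent filtering at 0.1, another alternative, DESeq2 called 247 genes, 136 higher and 111 lower in L192P. Those are the numbers the study gives, where the reported fit called 253.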

Additional observations from a re-analysis of the deposited data

Results flagged for a closer look

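Each member was screened within each genotype for 1 library standing apart from the rest. Of 16 groups, 0 held one, where chance gives about 0.8.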

How the results depend on the processing

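Depth limits Dnmt3b, at 6 to 22 counts per library, and the spread between libraries limits Mbd4. The 22 alternatives gave between 45 and 533 called genes, where the reported fit gave 253. edgeR gave 53, limma-voom 45, limma-trend on normalized values 63, the replicate block 533, the 6 libraries without replicate 1 of both genotypes 500, and the replicate block without L192P replicate 3, added after seeing the data, 119. Leaving out 1 library gave 112 (without WT replicate 4) to 496 (without WT replicate 1), with 114 to 157 without WT replicate 2 or 3 or L192P replicate 2, 3 or 4. Of the members, Tdg alone was called in any of them. The members called were 0 instead of 1 with edgeR, limma-voom, limma-trend and the replicate block without L192P replicate 3, and 0 to 1 on leaving out a library. Tdg was then at a log2 fold change of -0.32 in all of edgeR (adjusted p 0.0595), limma-voom (0.0686) and limma-trend (0.0661), and at -0.30 with the block and without L192P replicate 3 (0.219), where fewer libraries were fitted. On leaving out 1 library it ran from -0.36 to -0.29, with the call lost without L192P replicate 3 (0.0585) or WT replicate 2 (0.0503). The simulated counts had 200 genes changed by 1 log2 unit. On them edgeR and limma-voom made a smaller share of false calls than DESeq2 (5.59% and 5.71% against 11.6%). Both recovered fewer of the changed genes (84.5% and 82.5% against 88%). A log2 fold change of -0.32, as in Tdg, was not tested on simulated counts. The replicate block on all 8 libraries changed no call among the members or the wider list. The wider list had 0 calls in all 22.

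Signs turned for members near 0, none of them called. Mbd4 was 0.028 with limma-voom, Tet2 was -0.0016 with limma-trend and Tet3 was -0.0024 with TMM factors. Without replicate 1 of both genotypes Dnmt3b was -0.17, Tet2 -0.038 and Tet3 -0.083. With the replicate block and without L192P replicate 3, Dnmt1 was -0.010 and Dnmt3b -0.081. On leaving out 1 library, Dnmt1 ran from -0.022 to 0.046, Dnmt3b from -0.055 to 0.27, Tet1 from -0.0059 to 0.13, Tet2 from -0.16 to 0.14, Tet3 from -0.041 to 0.038 and Mbd4 from -0.20 to 0.052. The number of members with a seed match was 5 for miR-29-3p and 2 for miR-92-3p, 5 and 3 with 6 bases, and 6 and 2 with the longest annotated 3′ UTR, which was chosen after seeing the data, as were the fit on recovered counts, the swaps within pairs and the level of Tdg over unshared bases.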

Other observations

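Among the members themselves, the pair with the strongest relation over the 8 libraries was Dnmt1 and Tet2, with a Pearson r of -0.84 on log2 normalized counts and -0.85 after the mean of each genotype was removed. The pair of replicate 1 libraries, high in Tet2 and low in Dnmt1, supplies much of the range, and all points share a library. After removal of the genotype means, Tdg had its highest r with Tet3 (0.79), and Dnmt3a with Dnmt3b (0.78), the latter at 6 to 22 counts of Dnmt3b per library. Without that removal r was 0.25 for Tdg and Tet3 and 0.65 for Dnmt3a and Dnmt3b. The highest r of Tdg was then with Dnmt3a (0.57). These are descriptions of 8 libraries, among 28 pairs, and were not tested.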
